A study of Mus musculus with 7 samples.

Results

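The T cell receptor segments were the 186 of 55357 features in the count tables whose symbol is Trav, Trbv, Trgv or Trdv followed by a digit (V segments), or is Trac, Trdc, or Trbc or Trgc followed by a digit (C segments). The rule uses symbols only, but it was set with earlier results of these data known. They comprised 130 Trav, 35 Trbv, 7 Trgv and 6 Trdv segments and 8 C segments. At least 1 unique molecular identifier (UMI, a tag that marks 1 captured RNA molecule) was counted for 126 of them in the cells kept, at least 10 UMIs for 96, and none for 60. Of the 60 segments without a UMI, 45 share most of their transcript with another gene (under 50% of the 90-base windows of the transcript are unique to them) and 21 are annotated as pseudogenes.

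The samples were dissociated livers of mice carrying a hepatocellular carcinoma model, taken 2 weeks after plasmids for Nras and C-myc had been injected into the tail vein by the hydrodynamic method, in which a rapid large-volume injection carries DNA into hepatocytes. All 7 samples share these plasmids, and the 3 control samples received no other. The 4 treated samples also received an IL-2/CD25 expression plasmid, where IL-2 is a growth factor of T and NK cells and CD25 is the alpha chain of its receptor. The labels give all samples the same batch and do not give strain, age, sex, the region of the liver, or whether each sample is a separate animal, so p-values measure the spread between these samples, which may be technical.

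A T cell receptor is a pair of chains, alpha with beta or gamma with delta. Each chain is encoded by 1 V segment joined by DNA rearrangement to a J segment (with a D segment between them in beta and delta) and spliced to a C segment, so the V segment differs between clones while the C segment names the chain. The delta segments lie inside the alpha locus, and some V segments, named with both "Trav" and "dv", can be joined to either chain. Conventional CD4 and CD8 T cells use many alpha and beta V segments, whereas some innate-like T cells of the liver use few. NK cells are lymphocytes that assemble no T cell receptor.

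The libraries hold 62930 barcodes, 57739 of which were kept. Total UMIs per library were 76438139 to 181755269 in the control samples and 37653600 to 47881379 in the treated samples, and median UMIs per kept cell were 5640 to 8256.5 and 3115 to 4386. There were 467 barcode sequences present in 2 or more libraries. T cells held at least 2 UMIs of Cd3d, Cd3e and Cd3g, which encode the receptor's CD3 subunits, and were gated in a fixed order by Trdc (2 or more UMIs), Foxp3 (Treg), Zbtb16, Klra6 with Ikzf2, Cd8a or Cd8b1, and Cd4. The control and treated samples held 332 and 2727 CD8 cells, 103 and 611 CD4 cells, 34 and 793 Treg, 36 and 1216 Zbtb16+ cells, 41 and 1106 Trdc+ cells, and 33 and 891 Klra6+Ikzf2+ cells. NK cells (Ncr1 with no CD3 UMI) numbered 326 and 9954, and B cells, used here as the level of T cell receptor RNA in cells that lack it, 544 and 3368. The control sums are thus small, and the types are compared in the treated samples.

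Markers that the gates did not use were at these levels in the treated samples, as UMIs per 1000000 UMIs of the sum (CPM). CD4 cells had a mean of 95.2 CPM of Cd40lg, the helper ligand of activated T cells. Treg had a mean of 952.2 CPM of Il2ra and 1515 CPM of Ctla4. Zbtb16+ cells had 813.5 CPM of Cxcr6 and 443.8 CPM of Klrb1c, which are carried by many innate-like T cells. Klra6+Ikzf2+ cells had 567.7 CPM of Klra7 and 153.9 CPM of Cd244a, which are receptors shared with NK cells. In Trdc+ cells Blk stood at 19.1 CPM, Il17a at 24.9 CPM and Sox13 at 3.9 CPM. A UMI of the NK receptor gene Ncr1 was present in 33.13% of Trdc+ cells, 22.51% of Klra6+Ikzf2+ cells, 7.348% of Zbtb16+ cells, 6.892% of Treg, 5.361% of CD8 cells and 2.941% of CD4 cells, and its part in the results below was not tested beyond leaving those cells out.

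The 186 segments held 200666 UMIs, of which the 8 C segments held 94.72%. Trac encodes the constant part of the alpha chain, Trbc1 and Trbc2 of the beta chain, Trdc of the delta chain, and Trgc1, Trgc2, Trgc3 and Trgc4 of gamma chains. The beta C segments, which lie side by side on chromosome 6 (GRCm38; Trbc1 at chr6:41538218-41539881, Trbc2 at chr6:41546730-41548352, both on the plus strand), differ by 1 base in the first 360 bases of their transcripts. They are told apart by what follows. Part of it, bases 361 to 510 of each GENCODE transcript, is shown 5′ to 3′ with the 20 positions at which they differ there in capitals (86.67% identity), and the rest of both transcripts also holds windows unique to each.
Trbc1: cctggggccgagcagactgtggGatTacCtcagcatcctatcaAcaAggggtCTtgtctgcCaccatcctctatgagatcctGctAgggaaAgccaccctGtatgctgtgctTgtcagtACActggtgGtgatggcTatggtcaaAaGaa
Trbc2: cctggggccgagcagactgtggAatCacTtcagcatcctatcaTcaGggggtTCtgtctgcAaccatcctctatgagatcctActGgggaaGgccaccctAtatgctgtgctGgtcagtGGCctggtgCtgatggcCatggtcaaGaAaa
Of the 90-base windows of Trbc1 68.7% are unique to it, and of Trbc2 66.3%, so the split between them is less certain than their sum.

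The gamma C segments lie on chromosome 13, and each is joined to its own V segments in mice, Trgc2 to Trgv2, Trgc4 to Trgv1, and Trgc1 to Trgv4, Trgv5, Trgv6 and Trgv7. Trgc1 (chr13:19214103-19217024, plus strand) and Trgc2 (chr13:19304649-19307551, minus strand) differ at 4 of their first 150 bases (97.33% identity), shown in capitals because these near-identical genes are reported separately below.
Trgc1: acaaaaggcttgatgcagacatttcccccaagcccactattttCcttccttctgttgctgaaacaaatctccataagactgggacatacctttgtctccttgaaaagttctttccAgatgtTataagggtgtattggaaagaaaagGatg
Trgc2: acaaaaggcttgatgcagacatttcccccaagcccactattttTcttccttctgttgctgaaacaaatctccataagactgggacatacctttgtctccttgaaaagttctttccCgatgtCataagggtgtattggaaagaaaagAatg
Of the 90-base windows, 88.9% of those in Trgc1, 97.5% in Trgc2 and 100% in Trgc4 are unique.

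The level of Trac differed widely between the T cell types. In the treated samples it stood at 856.1, 920.1, 898.1 and 869.7 CPM in Treg and at 686.1, 718.5, 718.3 and 700.4 CPM in Zbtb16+ cells. CD4 cells had 672, 608.3, 549.9 and 688.3 CPM, CD8 cells 423.9 to 502.1 CPM and Klra6+Ikzf2+ cells 413.5 to 501 CPM. The ranges of CD8 and Klra6+Ikzf2+ cells overlapped, as did those of Zbtb16+ and CD4 cells by a narrow margin. Trdc+ cells had 75.27, 86.79, 75.27 and 82.64 CPM, below every alpha beta type and above NK cells (13.36 to 17.19 CPM) and B cells (9.253 to 14.15 CPM), which overlapped each other.

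Beta C segments were present in every T cell type and in NK cells. Treated means of Trbc2 lay between 790.3 ± 32.4 CPM (SD, n = 4) in Trdc+ cells and 1260 ± 161 CPM in Klra6+Ikzf2+ cells, and those of Trbc1 between 525.4 ± 68.3 CPM in Treg and 757.7 ± 49.5 CPM in Zbtb16+ cells. NK cells had 558.6 ± 18.7 CPM of Trbc1 and 215.9 ± 17.4 CPM of Trbc2, so that Trbc1 made up 72.1 ± 1.78% of their Trbc UMIs (UMI shares are not corrected for length). In the T cell types the same share was 35.2 ± 1.90% to 42.9 ± 2.09%, and no treated T cell sum reached the lowest NK value of 70.35%. B cells had 29.6 ± 10.3 CPM of Trbc1 and 24.0 ± 10.9 CPM of Trbc2.

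Gamma C segments were highest in Trdc+ cells and next highest in Zbtb16+ cells. In Trdc+ cells Trgc4 stood at 238.5, 337.7, 306.8 and 267.4 CPM, in Zbtb16+ cells at 68.36, 89.81, 86.17 and 107.7 CPM, and in Klra6+Ikzf2+ cells at 47.0 to 57.4 CPM. Trgc2 followed the same order, with treated means of 201.5 ± 39.2, 83.9 ± 6.52 and 72.0 ± 8.62 CPM, of which the last pair of ranges overlapped. Trgc1 had treated means of 190.7 ± 27.3, 72.3 ± 22.0 and 18.7 ± 5.26 CPM in these types. The Trgc1 mean of CD4 cells (26.9 ± 4.96 CPM) was above that of Klra6+Ikzf2+ cells, with overlapping ranges. CD4 cells stood between 19.4 and 50.4 CPM in Trgc4, above CD8 cells (10.8 to 14.7 CPM) and Treg (1.40 to 6.52 CPM) and overlapping Klra6+Ikzf2+ cells. Trgc3 was counted in 9 UMIs in Trdc+, 4 in Zbtb16+ and 1 in CD8 cells of the treated samples.

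**Figure D1:**
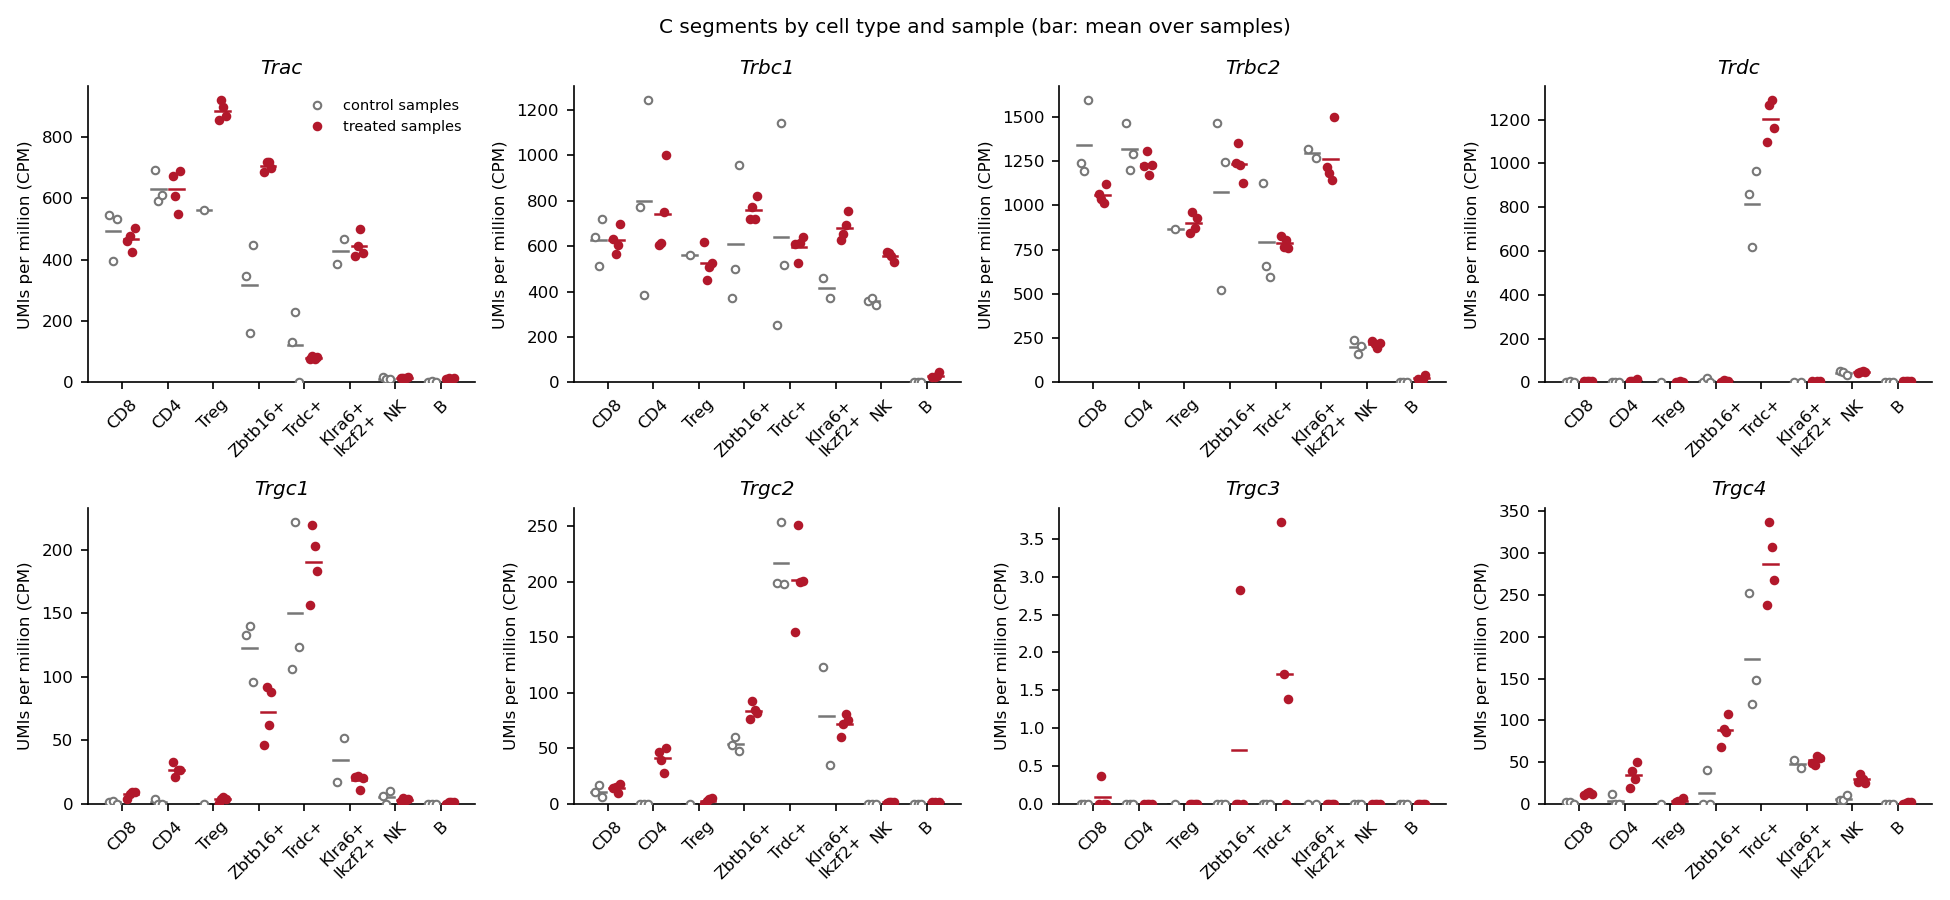
Levels of the 8 C segments in CPM (y axis of each panel) by cell type (x axis), with 1 point per sample, open grey for control and red for treated, and a bar at the mean. In the treated samples Trac lies at 75.27 to 86.79 CPM in Trdc+ cells and at 856.1 to 920.1 CPM in Treg, and Trgc4 is highest in Trdc+ cells.

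Each type was tested in the treated samples with edgeR's quasi-likelihood test on summed UMIs, with the sample as a block, against the mean of the log levels of the 5 other types. The calls used Benjamini-Hochberg adjusted p under 0.05 over all 11050 features that passed the low-count filter, 17 of which were segments. Trdc chose 1 of the gates and is left out, leaving 16. In Trdc+ cells 11 of the 16 were higher (8.61% of all features tested were higher) and 3 lower (6.34% of all features tested), with a median log2 fold change of 3.29 against 0.0 over all features. In Zbtb16+ cells 10 were higher (background 12.8% higher and 11.6% lower), with a median of 1.1. In CD8 cells 3 were higher (background 20.2%) and 6 lower (background 19.3%), in CD4 cells 3 were higher (background 6.3% higher and 3.93% lower), in Treg 1 was higher (background 24.9%) and 9 lower (background 21.4%), and in Klra6+Ikzf2+ cells 4 were higher (background 9.56% higher and 6.58% lower). The shares in CD8 cells and Treg were at or below the background of higher features. A segment can pass the filter through the 1 type in which it is high, the 6 contrasts share their samples, and the counts are given as a description.

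Because each contrast uses a mean of log levels, a segment absent from or low in some types can be called higher in a type with a lower pooled level than the others. In CD8 cells the pooled level was the lower one for Trav13-4-dv7 (log2 fold change 3.42 ± 0.75 SE, pooled 2.28 CPM against 2.98 CPM in the other types) and Trac (0.29 ± 0.05, pooled 468.5 against 533.2 CPM). In CD4 cells Trav11 rose by 3.01 ± 0.85 with a pooled ratio of 1.18 (95% interval 0.526 to 2.34), and in Klra6+Ikzf2+ cells Trgc4 rose by 0.67 ± 0.14 with a pooled ratio of 0.753. The adjusted p of Trav11 in CD4 cells was 0.0173 in edgeR and 0.368 in DESeq2. Without treated sample 2, which held the highest of the 4 CD4 levels of Trav11 (8.67 CPM, with 2.77, 1.23 and 0 CPM in the others), its edgeR adjusted p was 0.413, and without treated sample 1 it was 0.0586.

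Zbtb16+ T cells were set apart by Trav11, the V segment of the invariant alpha chain of type I NKT cells, which bind lipids on CD1d. Trav11 lies on chromosome 14 (chr14:53519303-53519859, plus strand, 623 kb upstream of Trdc). Its last 90 bases are shown because the finding is this segment, with capitals on the codons for tyrosine, any residue and cysteine, a pattern that closes most V segments (TA and C or T, any codon, TG and C or T). A search of the last 60 bases found it on the coding strand of 163 of 178 V segments (91.6%), and on the other strand of 2.
Trav11: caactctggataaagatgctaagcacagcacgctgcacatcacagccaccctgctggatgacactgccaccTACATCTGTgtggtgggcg
The first 342 of its 343 bases are identical to Trav11d, a second copy, so that reads in them cannot be told apart; Trav11d had 1 UMI in a T cell.

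In the 4 treated samples Trav11 stood at 21.41, 19.59, 13.42 and 20.91 CPM in Zbtb16+ cells, and at no more than 0.737 CPM in any CD8 sum. All treated Zbtb16+ values lay above those of every other gated type, whose highest was 8.67 CPM, in CD4 cells. The log2 fold change against the other types was 5.81 ± 0.45, with 95 UMIs against 14 and a pooled ratio of 38.4 (95% interval 21.8 to 73.0, counting error only). Trav11 passed the low-count filter through the type in which it is high, so both values are given as a description. Among cells in which 1 Trav segment had the most UMIs, Trav11 took 69 of 150 in Zbtb16+ cells (46.0%, Wilson 95% interval 38.2 to 54.0), with 53.1%, 46.7%, 45.5% and 40% in the samples. The next segments, Trav16n and Trav16 with 4.67% and 3.33%, are near-identical copies. Trav11 was 7.84% of the 102 assigned CD4 cells, and no Klra6+Ikzf2+ cell held a UMI of it.

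The beta chains of Zbtb16+ cells were led by Trbv12-2, Trbv29 and Trbv13-2. Trbv13-2 and Trbv29, known partners of the invariant Trav11 chain together with Trbv1, took 13.7 ± 4.89% and 16.8 ± 2.20% of cells with an assigned Trbv, and Trbv12-2 took 25.6 ± 5.67% (SD over 4 samples, 161 cells in all). Trbv1 took 4.31 ± 3.71% there, overlapping CD8 (3.33 ± 1.57%) and Klra6+Ikzf2+ cells (7.88 ± 5.79%). In CD8 cells Trbv29 was 5.31 ± 1.75% and its highest sample (7.69%) lay below the lowest Zbtb16+ sample (14.63%), whereas 1 Klra6+Ikzf2+ sample, with 13 assigned cells, reached 15.38%. The Trbv12-2 and Trbv13-2 shares of Zbtb16+ cells overlapped those of CD8 cells. Against Klra6+Ikzf2+ cells the Trbv13-2 shares overlapped, whereas the Trbv12-2 shares did not (19.51 to 30.77% in Zbtb16+ and 5.0 to 11.36% in Klra6+Ikzf2+ samples). As a level Trbv12-2 was higher in Zbtb16+ cells than in the other types, by 1.75 ± 0.31 on the log2 scale, and in CD8 cells by 0.83 ± 0.29 (edgeR adjusted p = 0.0188), a call lost without treated sample 1 (adjusted p = 0.11) or 3 (0.0511) and when all 7 samples were fitted (0.141). A pair of Zbtb16+ cells carried the same Trbv in 12.6 ± 2.37% of pairs, against 7.92 ± 1.91% in CD8 cells, with overlapping samples (9.27 to 14.8% and 6.20 to 10.6%). Among the 20 Zbtb16+ cells with both an assigned Trav and Trbv, Trav11 was seen with Trbv12-2 in 5 and with Trbv13-2 in 3. Trav1, the V segment of MAIT cells, had 3 UMIs in Zbtb16+ cells and 5 in CD8 cells.

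**Figure D2:**
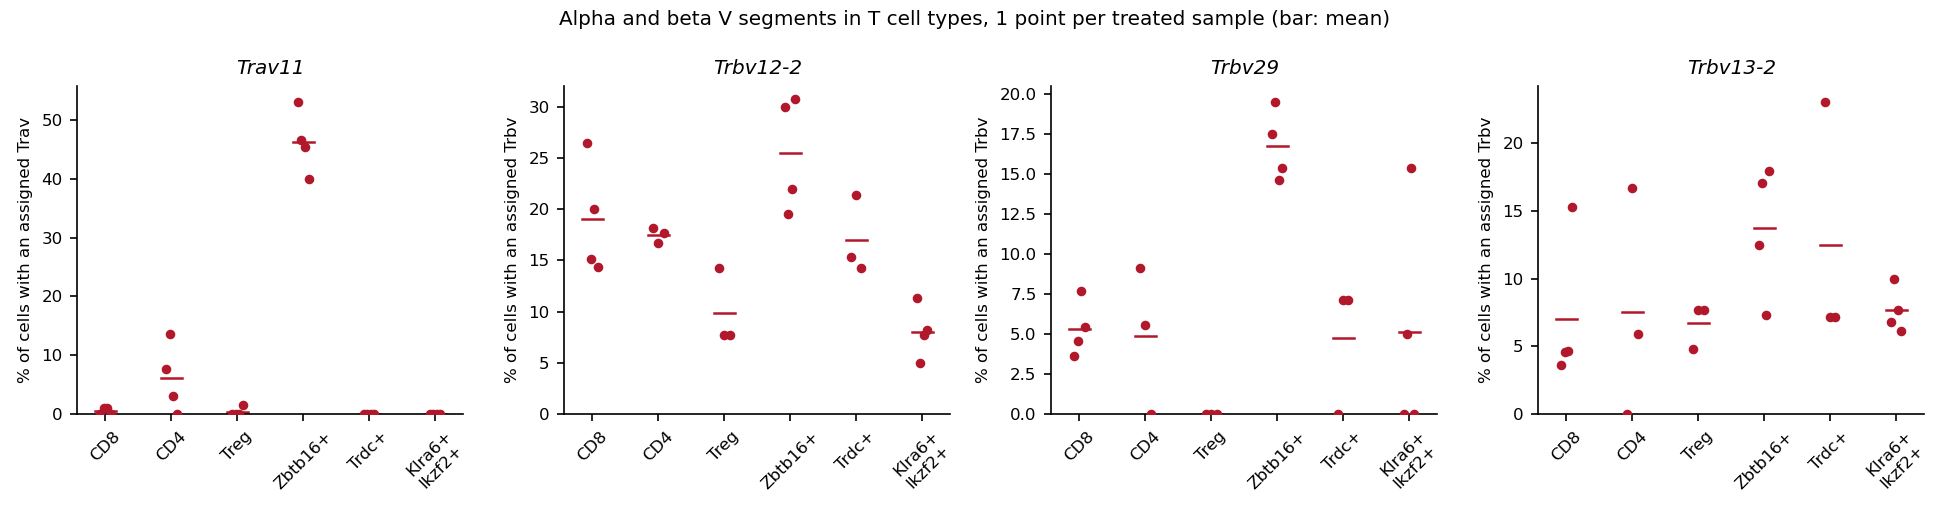
Share of cells with an assigned Trav (first panel) or Trbv (other panels) that carry Trav11, Trbv12-2, Trbv29 or Trbv13-2, in percent, by T cell type, with 1 point per treated sample holding at least 10 assigned cells and a bar at the mean. The Zbtb16+ samples lie at 40 to 53.1% for Trav11 and at 14.6 to 19.5% for Trbv29, the latter without overlap with CD8 cells but overlapping 1 Klra6+Ikzf2+ sample at 15.38%.

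Zbtb16+ cells also carried gamma chain RNA. At least 1 Trgc UMI was present in 44.16% of them (537 of 1216) and in 26.1% after each cell was thinned to 1500 UMIs, against 1.10% and 0.586% in B cells. Trac was detected in 86.2% of the Zbtb16+ cells with a Trgc UMI and in 87.5% of those without, and 38 of the 78 Trav11+ cells held a Trgc UMI. Against the other types Trgc1 was higher by 1.86 ± 0.14, Trgv2 by 1.58 and Trgc4 by 1.45 on the log2 scale. These are means of log levels that include Treg, which held little gamma RNA. Treated means of Trgc4 were 3.61 CPM in Treg, 88.0 CPM in Zbtb16+ and 287.6 CPM in Trdc+ cells. The log2 fold changes of Trbc1 and Trbc2 were 0.20 each. Both calls were lost when all 7 samples were fitted (edgeR adjusted p = 0.823 and 0.902), with doublets kept (0.0691 and 0.069) and without treated sample 2 (0.259 and 0.122), and that of Trbc2 also without sample 1 (0.105) or 3 (0.124).

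The alpha and beta V segments of the remaining alpha beta types were spread widely. In CD8 cells 71 Trav and 20 Trbv segments had a UMI, and the most used were Trav16 (7.38% of 461 assigned cells), Trav16n (6.51%), Trav3-3 (4.99%), Trbv12-2 (18.8% of 325) and Trbv2 (8.31%). CD4 cells were led by Trav3-3 and Trav11, with 8 cells each (7.84%), and by Trbv12-2 (15.1% of 53), Treg by Trav16n (11.9% of 151) and Trbv3 (11.8% of 68), and Klra6+Ikzf2+ cells by Trav16n (8.22% of 146) and Trbv13-1 (11.1% of 126). With so few assigned cells per sample, the order of these segments between types was not tested.

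Treg differed from the other types by high Trac and low gamma RNA. Trac was higher by 1.21 ± 0.05 on the log2 scale (edgeR adjusted p = 2.66e-22, pooled ratio 1.94). Trgc2 fell by 4.20 and Trgc1 by 3.46 relative to the other types. Klra6+Ikzf2+ cells, in contrast, had Trgc2 higher by 1.21 ± 0.14, though its treated mean (72.0 CPM) lay below those of Zbtb16+ (83.9 CPM) and Trdc+ cells (201.5 CPM). Trgv2 was higher by 1.19 ± 0.17, although its pooled ratio was 1.16 (95% interval 0.971 to 1.37). A Trgc UMI was held by 32.66% of the Klra6+Ikzf2+ cells. Trac was detected in 81.1% of those with a Trgc UMI and in 74.2% of the others.

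Trdc+ T cells carried the V segments of gamma and delta chains. The gate used only Trdc, so these segments were not part of the rule. Trgv2, Trdv4, Trdv2-2 and Trdv5 are shown by their last 90 bases, as the segments on which the description of Trdc+ cells and NK cells turns, with the same codons in capitals. Trgv2 lies at chr13:19336573-19337167 on the minus strand. Trdv4 (chr14:54074905-54075515) and Trdv2-2 (chr14:53960944-53961602) lie on the plus strand, 67.34 and 181.2 kb upstream of Trdc (chr14:54142851-54148868, plus strand). Trdv5 (chr14:54148662-54149294) lies on the minus strand behind Trdc, and 207 of its bases overlap Trdc.
Trgv2: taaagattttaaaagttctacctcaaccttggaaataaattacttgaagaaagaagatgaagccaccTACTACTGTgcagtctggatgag
Trdv4: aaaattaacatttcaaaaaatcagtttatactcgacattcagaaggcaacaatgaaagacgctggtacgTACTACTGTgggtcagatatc
Trdv2-2: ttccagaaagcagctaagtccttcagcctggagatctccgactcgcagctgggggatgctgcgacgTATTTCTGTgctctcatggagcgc
Trdv5: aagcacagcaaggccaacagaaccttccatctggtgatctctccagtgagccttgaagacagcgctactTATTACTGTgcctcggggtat
Since Trdc chose the cells and whether counting used strand is not given in the sources used here, the Trdv5 values are uncertain.

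Trdv5 stood at 14.16, 9.45, 13.69 and 15.97 CPM in the treated Trdc+ samples and had 2 UMIs in all other gated T cells together. Its log2 fold change was 7.24 ± 0.57, and its pooled ratio was 196.4 with a wide 95% interval of 52.2 to 1656. Trdv5 passed the low-count filter through the type in which it is high, so both values are given as a description. Trdv4 stood at 23.85, 28.36, 21.67 and 23.61 CPM, with 118 UMIs against 31 in the other T types, a log2 fold change of 4.57 ± 0.31 and a pooled ratio of 23.0. Trdv2-2 was higher by 4.33 ± 0.42. For each of these delta segments the 4 Trdc+ samples lay above all samples of the other 5 types. Trdv1 had 18 UMIs in treated Trdc+ cells, too few to enter the fit.

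Of the gamma V segments, Trgv2 was the most frequent. It stood at 122.2, 128.9, 114 and 104.2 CPM in the treated Trdc+ samples and was higher there by 3.07 ± 0.12 on the log2 scale. Trgv1 was higher by 4.02 ± 0.30 and Trgv4, used by gamma delta T cells that often make IL-17, by 2.88 ± 0.30. Among the 450 Trdc+ cells with an assigned Trgv, Trgv2 took 70.4%, Trgv1 14% (63 cells), Trgv4 11.1% and Trgv6 2.22%. Trgv2 took a like share of the assigned Zbtb16+ cells (169 of 220, 76.8%) and CD8 cells (85 of 107, 79.4%). Of 78 Trdc+ cells with both a Trgv and a Trdv, 23 paired Trgv2 with Trdv4, 15 with Trdv5 and 13 with Trdv2-2.

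The Trav UMIs of Trdc+ cells fell mostly on segments that delta chains can use. Of their Trav UMIs 77.7 ± 1.15% fell on segments whose names also carry "dv", against 17.6 ± 2.94% in CD8 cells, with no overlap (76.7 to 79.1% and 13.7 to 20.2%). Trav13-4-dv7 (9.69, 14.6, 9.12 and 15.3 CPM) was higher by 6.09 ± 0.58 and Trav15-1-dv6-1 (7.98 to 9.45 CPM) by 5.26 ± 0.68. Both segments passed the low-count filter through the type in which they are high, so these fold changes are given as a description. Only 64.5% of the windows of Trav13-4-dv7 are unique. Trac was lower in Trdc+ cells by a log2 fold change of -2.97 ± 0.08 (edgeR adjusted p = 1.08e-28, pooled ratio 0.139), while Trbc2 changed by -0.57 and Trbc1 by -0.21. The Trbc1 call was lost in 9 alternatives, with all 7 samples (-0.09, adjusted p = 0.855), a Trdc gate of 1 UMI (-0.08, 0.532), overlapping gates (0.14), no cells with Ncr1 (0.13), doublets kept (0.0595), DESeq2 (0.0623) and leaving out treated sample 2, 3 or 4 (0.103 to 0.157). Trbc was still detected in 92.5% of Trdc+ cells (76.4% thinned) and Trac in 20.25% (9.29% thinned; 1.81% in B cells).

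**Figure D3:**
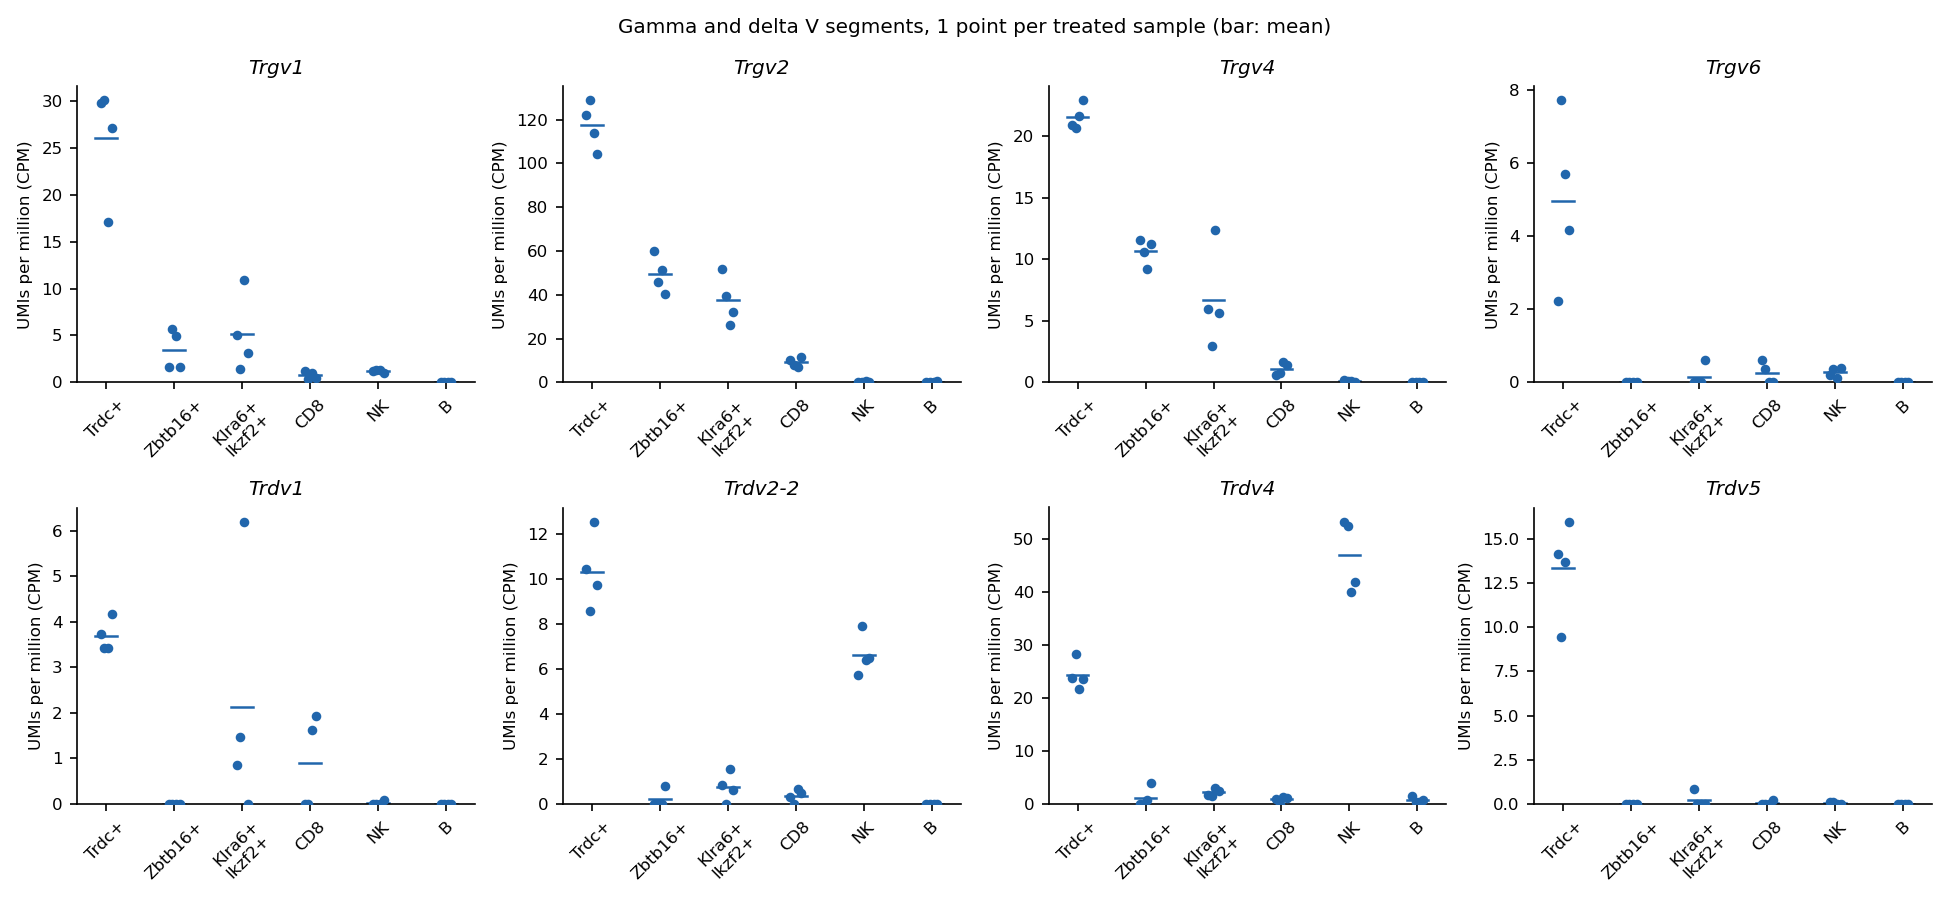
Levels of 4 Trgv and 4 Trdv segments in CPM (y axes) in 4 T cell types, NK cells and B cells (x axes), with 1 point per treated sample and a bar at the mean. Trgv segments and Trdv5 are highest in Trdc+ cells, while Trdv4 is highest in NK cells, at 40.05 to 53.35 CPM.

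NK cells held C segment RNA of beta, delta and gamma chains, and V segments almost only from the delta end of the locus on chromosome 14. Against B cells 8 of 17 segments tested were higher in the treated NK cells (background 33.1% higher and 31.9% lower), with a median log2 fold change of 1.38 against 0.007 over all features. Trdv4 led in UMIs among the V segments. It stood at 53.35, 52.55, 40.05 and 41.92 CPM in the treated NK samples, above the 4 Trdc+ samples (21.67 to 28.36 CPM), and at 0.284 to 1.502 CPM in B cells. The difference between NK and Trdc+ cells was not tested. Against B cells the log2 fold change was 6.32 ± 0.30 (edgeR adjusted p = 4.12e-21), with 1786 UMIs against 5 and a pooled ratio of 90.9 (38.9 to 280.3).

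Trdv2-2 had 251 UMIs in treated NK cells and 0 in B cells, so that it was at least 21.3-fold higher when 3 counts are set for the B cell group, and Trgv1 had 46 and 0 UMIs (at least 3.90-fold). Trbc1 was higher by 4.24 ± 0.12, Trgc4 by 4.42 ± 0.25, Trdc by 3.34 ± 0.16, Trbc2 by 3.26 ± 0.13 and Trgc1 by 1.38 ± 0.41. Trac was not called, at 14.6 ± 1.75 CPM in NK and 12.0 ± 2.20 CPM in B cells, and Trbv segments had 5 UMIs in the 9954 treated NK cells. A Trbc UMI was present in 82.27% of NK cells (60.3% thinned), against 12.77% (7.06% thinned) in B cells, and a Trdv UMI in 17.42% (7.50% thinned) against 0.119% (0.0609% thinned). The median UMIs per cell were 3626 in NK and 2732 in B cells. Of the treated cells with a Trdv4 UMI, 65.02% (1528 of 2350) were NK cells and 2.51% Trdc+ cells. NK cells were also the larger type, and a Trdv4 UMI was held by 15.35% of the 9954 NK cells and 5.335% of the 1106 Trdc+ cells. Within NK cells Trdc was detected in 10.5% of those with Trdv4 and in 15.1% of those without.

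Among the few NK cells with a gamma V segment, Trgv1 was the most frequent. Of 89 NK cells with an assigned Trgv, 48.3% carried Trgv1, 21.4% Trgv5, 15.7% Trgv2 and 10.1% Trgv6. Trgv5 and Trgv6 are, with Trdv4, the segments of the first gamma delta T cells made in the mouse fetus. In 29 NK cells with both classes, Trgv1 was seen with Trdv4 in 13, Trgv5 in 7 and Trgv6 in 4. These are 29 of 9954 cells, and the difference from Trdc+ cells was not tested.

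The V segments counted in NK cells lay close together on chromosome 14. Of the Trav and Trdv UMIs in treated NK cells 98.61% (2193 of 2224) came from the 300 kb upstream of Trdc. This stretch holds 5 of the 130 Trav segments, and also Trdv4 and Trdv2-2. Trdv segments held 2040 of the 2224 UMIs, so the share mostly follows where those segments lie. The share from this stretch was 48.65% in Trdc+, 17.90% in Klra6+Ikzf2+, 12.29% in CD8, 7.725% in Treg, 4.403% in CD4 and 4.018% in Zbtb16+ cells. For Trav alone it was 84.24% in NK and 8.86% in CD8 cells, and the 4 NK samples (76.3 to 93.0%) did not overlap the CD8 samples (6.41 to 15.7%), a difference that was not tested. NK cells used 15 Trav segments, and 149 of their 178 assigned cells (83.7%, Wilson 95% interval 77.6 to 88.4) carried Trav22, a pseudogene 215.3 kb upstream of Trdc (chr14:53926978-53927595, plus strand). Its last 90 bases hold no such codon pattern on the coding strand.
Trav22: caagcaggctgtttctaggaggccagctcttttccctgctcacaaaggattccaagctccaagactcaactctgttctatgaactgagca
Trav22 stood at 5.31, 3.70, 3.63 and 3.41 CPM in the treated NK samples, with 0.229 ± 0.161 CPM in CD8 cells and 2.05 ± 0.883 CPM in Trdc+ cells.

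**Figure D4:**
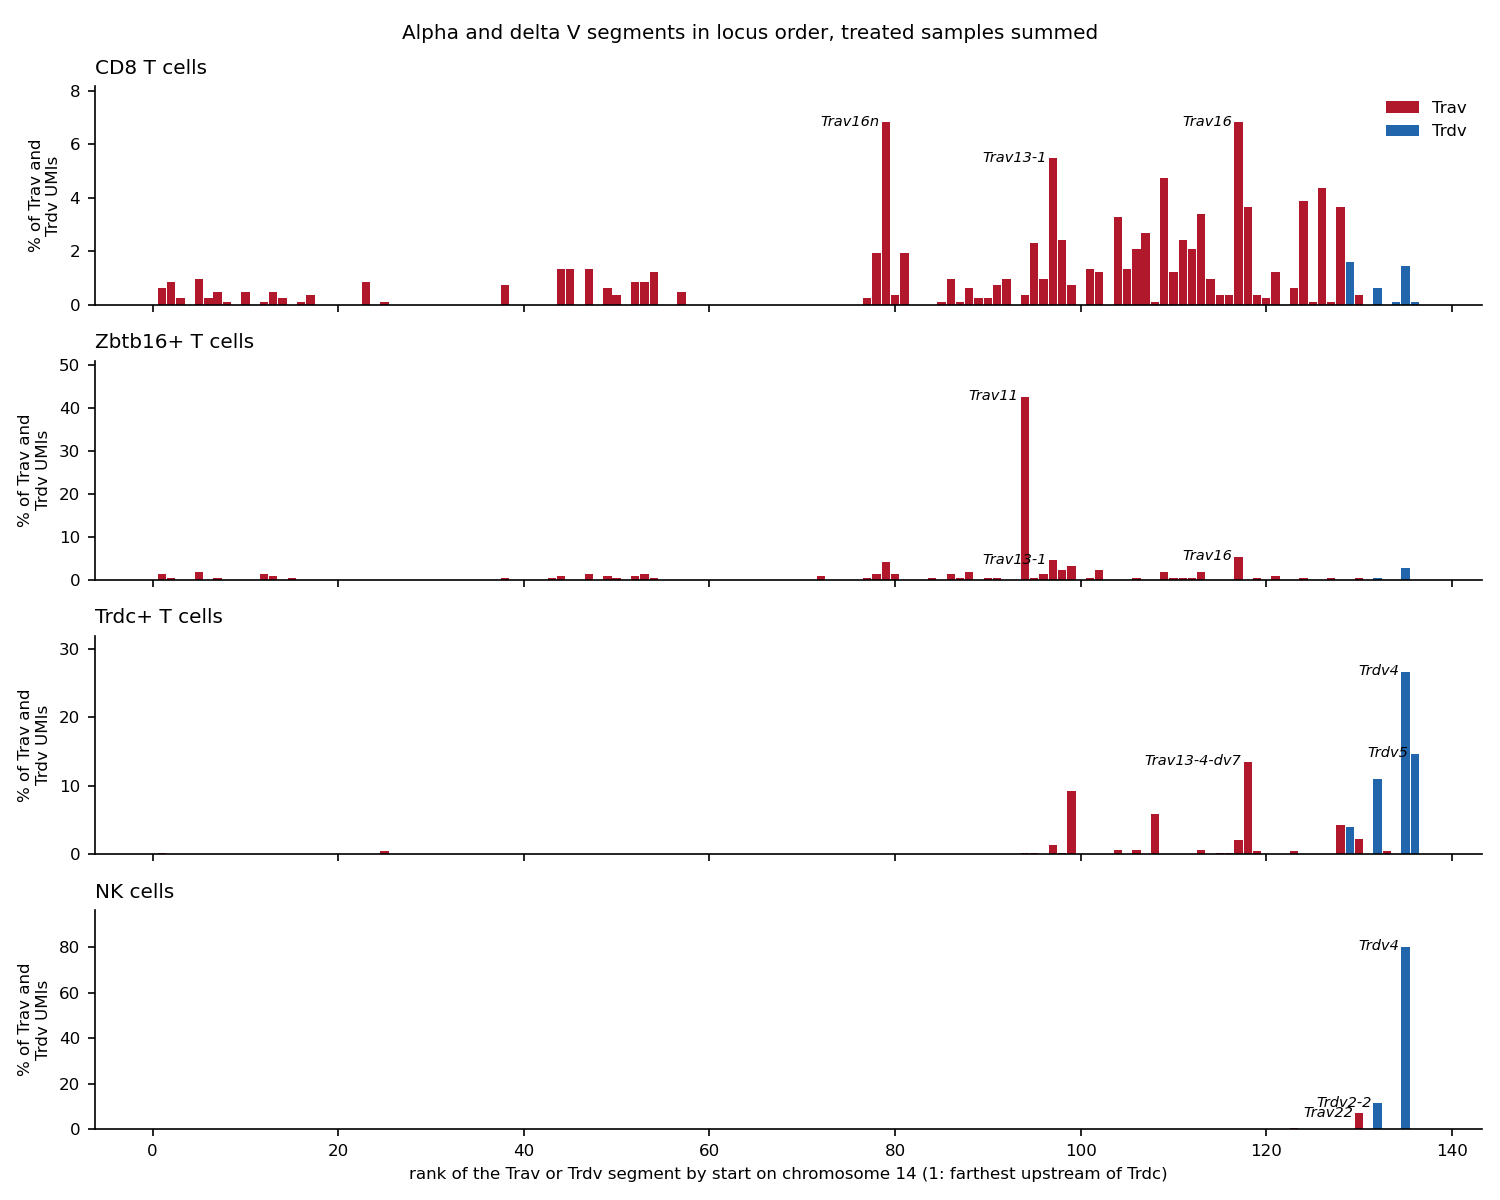
Share of all Trav and Trdv UMIs of a cell type (y axis, percent, treated samples summed) by the order of the segments along chromosome 14 (x axis, rank of the start) in CD8, Zbtb16+, Trdc+ and NK cells. CD8 UMIs are spread over the locus, Zbtb16+ cells have 1 high bar at Trav11, and 98.61% of NK UMIs lie within 300 kb upstream of Trdc.

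Genes that carry the receptor's signal were read as a list of 30 (CD3 zeta chain, kinases, adaptors, phosphatases and coreceptors). Beside each count stands the share of all features tested that moved the same way. In Trdc+ cells 4 were higher (8.61%) and 11 lower (6.34%) than in the other types, with a median log2 fold change of -0.04 against 0.0 over all features, and in Klra6+Ikzf2+ cells 8 (9.56%) and 11 (6.58%), with medians of -0.01 and 0.013. Cd5, an inhibitory receptor of T cells, changed by -1.96 ± 0.11 and -1.14 ± 0.11 in these types, Cd6 by -1.53 ± 0.12 and -1.54 ± 0.12, and the costimulatory receptor Cd28 by -0.69 ± 0.08 and -0.57 ± 0.09. In Zbtb16+ cells 9 were higher (12.8%) and 7 lower (11.6%), with Cd247, the zeta chain, at -0.93 ± 0.08 and Cd6 at 1.04 ± 0.09. In CD8 cells 17 were higher (20.2%) and 6 lower (19.3%), in CD4 cells 9 (6.3%) and 4 (3.93%), and in Treg 10 (24.9%) and 13 (21.4%). In NK cells 21 were higher (33.1%) and 6 lower (31.9%) than in B cells, among them the kinase Zap70 (3.86 ± 0.13) and Cd247 (4.67 ± 0.13).

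The treated and control samples were compared within each type by the same test. Of the segments tested, in CD8 cells 3 of 9 passed (background 49.0%), in CD4 cells 2 of 5 (17.8%), in Zbtb16+ cells 2 of 10 (3.69%), in Trdc+ cells 1 of 12 (8.22%), in Klra6+Ikzf2+ cells 1 of 7 (3.38%) and in NK cells 3 of 10 (38.2%). The shares in CD8 and NK cells were below the background. Treg had too few control cells for a test, and Klra6+Ikzf2+ cells had 2 control samples. The median of all features moved by 0.333 in Zbtb16+ cells, 0.153 in Trdc+ cells and 0.112 in Klra6+Ikzf2+ cells (log2), against which their values should be read.

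Trgc4 was higher in the treated samples in 4 of the 6 types tested. In CD8 cells it stood at 2.12, 2.42 and 0 CPM in the control samples and at 10.76, 12.89, 14.66 and 11.35 CPM in the treated samples, a log2 fold change of 2.86 ± 0.51 (edgeR adjusted p = 0.000264, 162 UMIs against 4, ratio 7.72, 95% interval 2.96 to 28.7). In NK cells it stood at 4.21, 4.51 and 10.56 CPM and at 26.83, 36.14, 30.41 and 25.30 CPM (2.38 ± 0.32, adjusted p = 0.000143). In both types the groups did not overlap. The share of NK cells with a UMI of Itga1, which encodes the CD49a integrin of tissue-resident cells, moved with the groups: 3 of 90, 6 of 163 and 1 of 73 control cells and 674 of 2158, 484 of 2256, 479 of 2518 and 872 of 3022 treated cells held one. Among NK cells without an Itga1 UMI Trgc4 stood at 4.40, 4.92 and 10.65 CPM in the control and at 14.4, 16.8, 15.8 and 11.6 CPM in the treated samples, a narrower gap than over all NK cells, still without overlap and not tested. In CD4 cells (2.34 ± 0.73, adjusted p = 0.0317) and Zbtb16+ cells (2.88 ± 0.76, adjusted p = 0.0305) the control samples held 3 and 2 UMIs, with ratios of 5.47 (1.81 to 27.1) and 6.61 (1.82 to 54.7). The CD4 call was lost without control sample 2 (adjusted p = 0.0914) or 3 (0.0944), in DESeq2 (0.0809), with the replicate block (0.0627) and with overlapping gates (0.084). The Zbtb16+ call was lost without control sample 1 (0.179) or 3 (0.256) or treated sample 2 (0.0925), 3 (0.0609) or 4 (0.0611), in DESeq2 (0.14), with median-of-ratios scaling (0.0668) and without cells holding Ncr1 (0.0643). Trgc1 rose in CD8 cells by 2.57 ± 0.69 (adjusted p = 0.0061), with 102 UMIs against 3. In CD4 cells Trgc2 had 93 UMIs in the treated and 0 in the control samples, at least 6.06-fold higher, and was called (edgeR adjusted p = 0.00114). Since every control sum held 0 UMIs, leaving out a control sample could not test this call. Without treated sample 1, 2 or 4 neither Trgc2 nor Trgc4 of CD4 cells passed the low-count filter.

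Alpha and beta C segments passed in 4 types. In Zbtb16+ cells Trac stood at 346.8, 160.4 and 446.9 CPM in the control samples, below all treated samples, and rose by 1.30 ± 0.24 on the log2 scale (edgeR adjusted p = 0.00111). In NK cells Trbc1 stood at 357.6, 372.6 and 341.4 CPM and at 574.1, 569.2, 558.7 and 532.1 CPM, and rose by 0.56 ± 0.10 (adjusted p = 0.00111); without Itga1+ cells it stood at 337.2 to 384.2 CPM and at 473.8 to 508.3 CPM. In CD8 cells Trbc2 fell by 0.41 ± 0.12 (adjusted p = 0.0133), with 1240, 1195 and 1595 CPM against 1063, 1038, 1015 and 1121 CPM, a call lost without control sample 3 (adjusted p = 0.126) and without the low-count filter (0.0515). In Klra6+Ikzf2+ cells Trbc1 rose by 0.73 ± 0.20 (adjusted p = 0.045), with 457.9 and 373.2 CPM against 625.7 to 754.5 CPM, and this call was lost when any 1 of the 6 samples was left out (adjusted p = 0.0655 to 0.277), with the replicate block (0.441) and under 4 other alternatives (0.0506 to 0.0853).

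Of the V segments 2 passed a test between the groups. Trdv4 in NK cells stood at 23.14, 20.28 and 42.23 CPM in the control and 53.35, 52.55, 40.05 and 41.92 CPM in the treated samples, and rose by 0.85 ± 0.25 (edgeR adjusted p = 0.017). The groups overlapped, also among NK cells without Itga1 (21.3 to 39.04 and 38.32 to 49.82 CPM), and the call was lost without control sample 1 (adjusted p = 0.0602) or 2 (0.26). Trgv2 in Trdc+ cells stood at 265.4, 150.9 and 197.8 CPM and at 122.2, 128.9, 114 and 104.2 CPM, and fell by 0.79 ± 0.24 (adjusted p = 0.0402). The Trgv2 call was lost when any 1 of the control samples was left out (adjusted p = 0.319, 0.0976 and 0.073), with the replicate block (0.126), without the low-count filter (0.15), with 3 CD3 UMIs as the T cell gate (0.104) and without cells holding Ncr1 (0.138). Trav11 had 0 UMIs in the control Zbtb16+ cells, but these were 36 cells in all, and the pooled treated level of 95 UMIs is 0.932 times the CPM that 3 counts would give there, so no change was detectable at this depth.

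Levels in B cells moved with the groups too. All segments together stood at 6.27 ± 2.90 CPM in control and 75.4 ± 23.6 CPM in treated B cells, Trbc1 at 0.984 and 29.6 CPM, Trac at 2.15 and 12.0 CPM, and Trgc4 at 0 and 1.25 CPM. The part of this background in the group differences was not tested. In a sum over cells, fewer cells with a segment and less RNA per cell cannot be told apart.

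**Figure D5:**
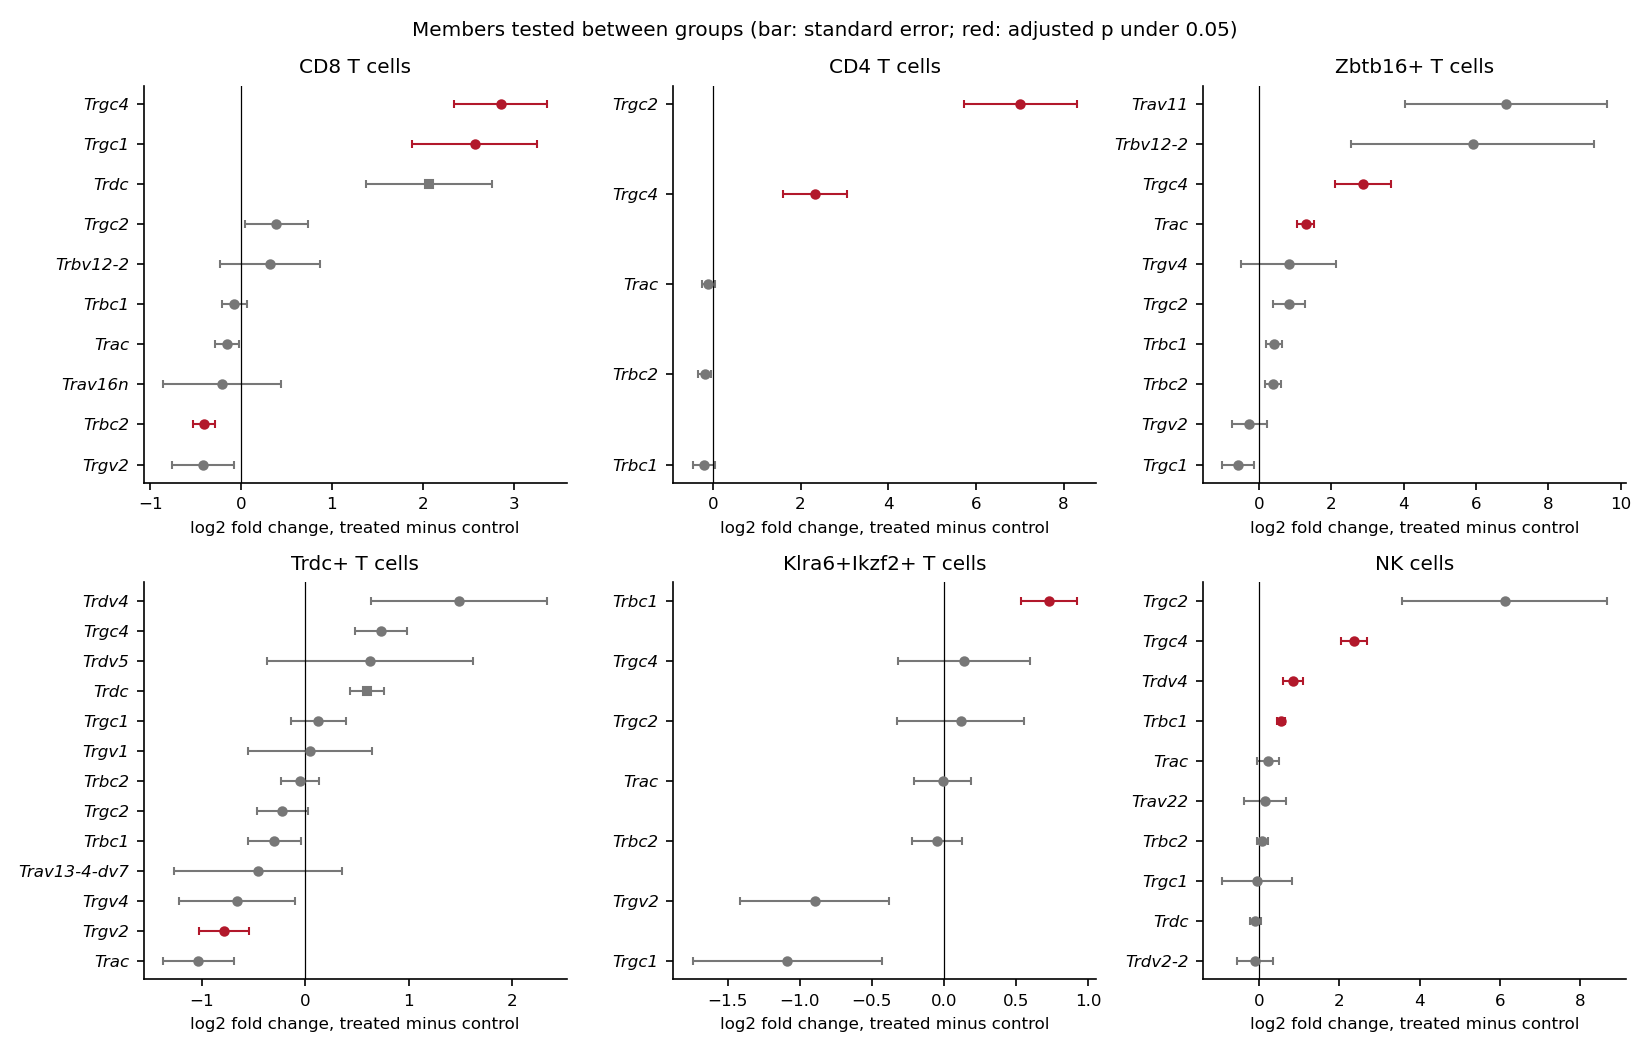
Log2 fold change (treated minus control, x axis, bars SE) of each segment tested (y axis), with a panel for each of 6 cell types. Red marks segments with an edgeR adjusted p under 0.05. A square marks Trdc, which chose the Trdc+ gate. Trgc4 is in red in CD8, CD4, Zbtb16+ and NK cells, and Trgv2 in Trdc+ cells and Trbc2 in CD8 cells are in red left of 0.

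Sums over the C segments gave no difference that passed its correction. Their total was 627.9 ± 40.4 CPM in control and 870.7 ± 23.5 CPM in treated NK cells, with no overlap (exact 2-sided permutation p = 0.0286, the smallest that 35 splits allow, adjusted p = 0.0857 over 6 types). In Zbtb16+ cells it was 2204 ± 691 and 2951 ± 123 CPM (exact permutation p = 0.0286, adjusted 0.0857), and in CD8 cells 2477 ± 364 and 2190 ± 125 CPM (exact permutation p = 0.2, adjusted 0.24), a difference of -286.7 CPM. These differences depended on the limits that the gates set on markers of other lineages. Without those limits the CD8 difference turned to 681.0 CPM, higher in the treated samples (unadjusted exact permutation p = 0.0286), the CD4 difference went from -39.47 to 675.5 CPM, and those of NK and Zbtb16+ cells grew from 242.7 to 593.3 CPM and from 747.2 to 1867 CPM. The Trbc1 share of Trbc UMIs was 31.8 ± 2.12% in control and 37.1 ± 1.30% in treated CD8 cells, and 64.1 ± 5.26% and 72.1 ± 1.78% in NK cells, with no overlap in either (exact permutation p = 0.0286 each, adjusted 0.0857). Tests of whether these differences were unlike that of CD8 cells, 10 in all, gave no adjusted p under 0.1429.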

How the data were processed

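Single-cell libraries (10x 3′ v3.1, which counts UMIs near the 3′ end of transcripts) of 3 control and 4 treated liver samples were used as the authors deposited them, as raw UMI counts per gene and barcode, 1 matrix per sample. Cell Ranger 7.0.0 made the counts, per the file headers and the submitters' processing notes, which also name bcl2fastq 5.0.1. Build and annotation were not given in the sources used here. Because reads start near the 3′ end of the C segment, a V segment is counted only from the rare fragments that reach it, so V counts are sparse.

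Barcodes with at least 500 UMIs, 200 genes and under 20% mitochondrial UMIs were kept. Doublets were scored within each sample by simulated pairs, and 5.81 to 8.51% of the cells passing were removed, a number set by an assumed rate of 0.8% per 1000 barcodes. Gates were exclusive, in the order given in the report, and 2.012% of T cells met 2 or more of the special gates. Counts were summed per sample and type (10 or more cells) and tested with edgeR 4.0.16 (TMM, quasi-likelihood, Benjamini-Hochberg adjustment; filterByExpr) in R 4.3.3; single values per sample were tested by exact permutation. DESeq2 1.42.0, other scalings, filters, gates, a replicate block and leaving out each replicate were alternatives. Replicate numbers did not pair samples. Scripts were tested on simulated counts.

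A cell was assigned the V segment of a class with the most UMIs, and cells with ties were left out. Segments were placed by Ensembl ID in GENCODE M21 (GRCm38), where all 186 matched. This annotation may differ from the authors'. Named were the C segments, V segments with known use, the 5 most used Trav and Trbv segments per type, and up to 10 (types) or 6 (groups) called segments; Trav22 and the NK gamma segments were singled out after their values were seen. The members, gates and lists were chosen with earlier results of these data known.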

Additional observations from a re-analysis of the deposited data

Results flagged for a closer look

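Of 68 values checked among 4 treated samples, 5 had 1 sample far from the other 3 by Dixon's criterion, where chance gives about 1 in 20. In CD4 cells 1 sample had 3058 CPM of C segments in all, with 2565 to 2634 CPM in the others, and the same sample had 14.39 CPM of Trdc, with 5.53 to 6.19 CPM in the others. In Zbtb16+ cells 1 sample had a Trbc1 share of 42.14% of Trbc UMIs, with 36.41 to 36.87% in the others. In NK cells Trac stood at 17.19 CPM in 1 sample and at 13.36 to 13.94 CPM in the others. In Klra6+Ikzf2+ cells Trgc1 stood at 10.86 CPM in 1 sample and at 20.68 to 22.03 CPM in the others.

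T cells outside the 6 gates entered no comparison of the report. A Trav11 UMI was present in 1.646% of them in the treated samples (59 of 3584) and in 0 of 220 in the control samples, which allows a share of cells with a UMI of up to 1.364% (3 cells of 220 pooled over 3 samples, counting error only). A UMI of a V segment is captured from few of the cells that use it, and no difference between the groups was tested.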

How the results depend on the processing

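Counts below are of segments called, by edgeR unless DESeq2 is named. Called values of single segments that were still tested numbered 670 under alternatives other than leaving out a replicate, of which 34 lost the call and 0 changed sign. They numbered 301 when 1 replicate was left out, of which 36 lost it and 0 changed sign. Calls whose segment fell below the low-count filter in an alternative are in neither number. Without the low-count filter the higher segments were 17 in CD8, 8 in CD4, 3 in Treg, 18 in Trdc+ and 8 in Klra6+Ikzf2+ cells, since more are tested, and those changed between groups 9 in CD8, 5 in CD4 and 2 in Trdc+ cells. With overlapping gates 6 were higher in CD8 cells and 2 in Treg. Between groups, DESeq2 called 1 in CD4 and 1 in Zbtb16+ cells. Median-of-ratios scaling gave 1 in Zbtb16+ and 2 in Trdc+ cells. A T cell gate of 3 CD3 UMIs gave 1 in CD4 and 0 in Klra6+Ikzf2+ cells, and 0 in the latter also with doublets kept or stricter cell filters (1 at an unadjusted p under 0.05 in each, and 1 by DESeq2 on the main cells). Without T cells holding Ncr1, an alternative chosen after seeing the data, 1 was called in CD4, 1 in Zbtb16+ and 0 in Trdc+ cells (3 at an unadjusted p under 0.05).

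Same-numbered samples did not deviate together (correlations of -0.02 to 0.05 in CD8 cells). With the replicate block 1 segment was called in CD4 cells, 0 in Trdc+ cells (3 at an unadjusted p under 0.05; DESeq2 without the block called 1) and 0 in Klra6+Ikzf2+ cells (0 unadjusted; DESeq2 called 1).

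Leaving out 1 replicate gave 1 higher segment in CD4 cells at the lowest, and between groups 5 at the highest in CD8 cells (without control sample 2). In CD4 cells 0 changed without treated sample 1, 2 or 4 (0 unadjusted too, where its segments fell below the filter) and 1 without treated sample 3. Zbtb16+ cells had 1 without control sample 1 or treated sample 2, 3 or 4. Trdc+ cells had 0 without control sample 2 and 2 without treated sample 2 or 4. Klra6+Ikzf2+ cells had 0 without treated sample 1, 2, 3 or 4 (1 to 2 unadjusted). Most leave-outs not named here stayed close to the main counts. Without limits on markers of other lineages the treated minus control difference in summed C segments was 681.0 CPM in CD8 and 675.5 in CD4 (both below 0 with the limits), 1867 in Zbtb16+, 1069 in Trdc+ and 593.3 in NK cells, the Treg mean was 2289 CPM and the Klra6+Ikzf2+ difference in Trbc1 share 14.13 points. That share difference was 13.08 points without T cells holding Ncr1, and 2.581 points in CD8 cells with overlapping gates. With doublets kept, Treg had 2292 CPM and a same-Trbv share of 6.541%. The causes were not tested. Control totals of 33 to 103 cells per CD4, Zbtb16+, Trdc+ and Klra6+Ikzf2+ type limit what the group tests can show.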

Other observations

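T cells in none of the 6 gates, 3584 in the treated samples, held many of the same segments. Trdv4 stood at 25.66, 11.96, 11.33 and 24.15 CPM in their 4 sums and Trgc4 at 83.74, 96.38, 86.83 and 71.19 CPM. Trav11 took 56 of their 373 cells with an assigned Trav (15.0%). A UMI of Ncr1 was present in 32.94% of them.

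NK cells with a UMI of Itga1 were set beside NK cells without one in the treated samples, as values with no test. Trgc4 stood at 51.5, 99.5, 84.6 and 55.6 CPM in the Itga1+ cells and at 14.4, 16.8, 15.8 and 11.6 CPM in the others. Trbc1 was at 757.7 ± 88.8 and 488.7 ± 14.4 CPM and Trbc2 at 312.5 ± 20.4 and 181.2 ± 16.1 CPM (SD, n = 4), and the ranges did not overlap for any of these 3 segments. Trdv4 was at 55.0 ± 10.7 and 43.9 ± 5.94 CPM and Trav22 at 4.03 ± 1.83 and 4.00 ± 1.02 CPM, with overlapping ranges. Trdc was at 37.7 ± 5.08 CPM in the Itga1+ cells and 50.4 ± 4.19 CPM in the others, without overlap.

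Trdv4 UMIs also occurred in control cells outside the lymphocyte gates. Of 107 control cells with one, 37 were NK cells, 16 myeloid cells (0.168% of 9503) and 42 in no gate (0.336% of 12505).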
